A study of Mus musculus with 24 samples.

Results

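The addition of a fasting mimicking diet (FMD) to vincristine (VC) was followed in the spleens of mice with BCR-ABL B cell acute lymphoblastic leukemia, by setting 6 mice given the diet with the drug (FMD + VC, mice 21, 29, 30, 42, 45 and 46) against 6 mice fed ad libitum and given the drug (AL + VC, mice 13, 14, 17, 18, 37 and 41). These are 12 of the 24 mice of the series. The other 12, fed the FMD with vehicle (FMD) or kept ad libitum with vehicle (AL), enter the shared estimate of the spread and a side by side comparison at the end. All were male C57BL/6J mice, 20 weeks old, that had been injected with syngeneic GFP-expressing BCR-ABL pre-B leukemia cells, so a spleen holds the host's own cells together with any leukemic cells. RNA of the whole spleen was sequenced with 1 library per mouse after removal of ribosomal RNA. Mouse numbers do not repeat between groups, and each value comes from a separate animal.

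The FMD is a plant-based diet low in calories, sugar and protein that is fed for a few days in cycles, with refeeding between them, and fasting lowers insulin and insulin-like growth factor signalling and raises glucocorticoids in mice. Vincristine binds tubulin and stops dividing cells in mitosis. The mouse spleen joins a lymphoid organ, where B cells fill follicles around stromal cells that make the chemokine CXCL13, to a red pulp that clears old red cells and, under stress, makes new erythrocytes, granulocytes and platelets. In bulk RNA of a spleen, fewer cells of a type and less RNA per cell cannot be told apart.

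Values are regularized log2 values (rlog), on which a difference of 1 is a factor of 2, and which draw genes with few reads toward their mean, so that their differences are understated. The depth of each library is unknown. The comparison took in 16557 of 46078 genes, those whose mean over the 24 mice reached an rlog of 3.32, which is 10 on the linear scale. The 12 libraries had similar median levels, from 7.73 to 7.86. A non-coding RNA, Gm26917, took between 11.2% and 30.1% of the summed expression of a FMD + VC or AL + VC mouse, and mouse 42 of FMD + VC had the highest share. Genes of the mature B cell, the main cell of the spleen, were abundant in every mouse, and all 8 exocrine pancreas genes listed as a check for a neighbouring organ lay below the minimum (highest rlog 2.42, for Cel).

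No gene passed the test between FMD + VC and AL + VC. In limma 0 of 16557 genes (0%) had a Benjamini-Hochberg adjusted p under 0.05, and the smallest adjusted p was 0.136. At an unadjusted p under 0.05 there were 1038 genes with a higher mean in FMD + VC (6.27%) and 840 with a lower mean (5.07%), and the median difference of means over all genes, in log2, was -0.0053. The count changed with the weight given to each mouse. With limma's weights per library 4966 genes passed, 2475 higher and 2491 lower. Among FMD + VC and AL + VC mice these weights were lowest for AL + VC mice 17 (0.27), 41 (0.413) and 18 (0.443). They were highest for FMD + VC mouse 29 (7.29), so that count rests on unequal use of the mice. Without AL + VC mouse 18 the count was 12, while it was 1 without AL + VC mouse 17 and 1 without FMD + VC mouse 42. Below, values are therefore given as measured, and a gene or list is said to have a higher or lower mean, which is not a call. A log2 difference is the mean rlog of FMD + VC minus that of AL + VC, and its standard error (SE) and adjusted p are those of limma.

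FMD + VC mice lay nearer, on average, to the median profile of their group than AL + VC mice did to theirs. The root mean square distance of a mouse to the median profile of its group averaged 0.247 ± 0.099 in FMD + VC mice and 0.391 ± 0.066 in AL + VC mice (SD, n = 6 each), on the log2 scale. It was 0.203, 0.147, 0.240, 0.279, 0.428 and 0.186 in FMD + VC mice 21, 29, 30, 42, 45 and 46. It was 0.340, 0.499, 0.429, 0.388, 0.316 and 0.375 in AL + VC mice 13, 14, 17, 18, 37 and 41. In FMD + VC, 5 of 6 mice were thus nearer to their group's median than any AL + VC mouse was to its own, and mouse 45 was the exception. The difference of -0.144 had an exact permutation p of 0.0195 (two-sided, over the 924 ways to place 6 of 12 mice). The distances were computed once from the labelled groups, and the medians were not recomputed in each placement. Distances within a group share a median, so this p is only approximate for a difference in spread. The difference did not pass without AL + VC mouse 17 (p = 0.0779), 18 (p = 0.0736) or 41 (p = 0.0779) in the same permutation test, where it was -0.136, -0.146 and -0.144.

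Per gene, the SD over mice had a median of 0.187 in FMD + VC and 0.283 in AL + VC, and 77.1% of the tested genes (12772) had the larger SD in AL + VC. The SD was more than 2 times larger in AL + VC for 5181 genes and more than 2 times larger in FMD + VC for 362. With predicted genes and antigen receptor segments left aside, the genes with the largest SD in AL + VC were Gria2, a glutamate receptor subunit, Crisp1, a secreted protein known from the epididymis, Xist, the RNA that coats the inactive X chromosome of female cells, Pcdh11x, a protocadherin, and Mrgpra1, a receptor known from sensory neurons. Gria2 had a lowest, median and highest rlog of 7.73, 7.84 and 10.47 in FMD + VC and 7.80, 10.30 and 12.65 in AL + VC. Xist stood at 10.45, 10.51 and 12.99 in FMD + VC and 10.48, 12.78 and 15.20 in AL + VC, in mice that are all labelled male. For these 5 genes AL + VC mice 13, 14 and 37 had the 3 highest values of the 12 mice, and FMD + VC mouse 45 had the highest value of its own group. Their log2 differences lay between -2.13 (Crisp1) and -1.61 (Mrgpra1), with adjusted p from 0.427 to 0.45 in limma.

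The genes with the largest SD in FMD + VC, chosen in the same way, were of other kinds. Igll1, a chain of the receptor of pre-B cells, and Rag1, the recombinase that cuts antigen receptor genes in lymphocyte precursors, owed it to mouse 45. Igll1 was at 7.16 in mouse 45 and between 2.89 and 3.25 in the other FMD + VC mice, against 2.97, 4.69 and 7.24 (lowest, median and highest) in AL + VC. Rag1 was at 7.66 in mouse 45 and between 3.37 and 4.04 in the others, against 3.81, 4.93 and 7.30 in AL + VC. The other members of this set were the globin genes Hbb-bs, Hbb-bt and Hba-a2, which encode the chains of adult hemoglobin. Hbb-bs ran over 10.26, 11.93 and 14.38 in FMD + VC and 11.28, 11.94 and 16.31 in AL + VC, so that red cell RNA varied widely within both groups. The globin genes share sequence with near copies, and how reads were split between these is uncertain.

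**Figure D1:**
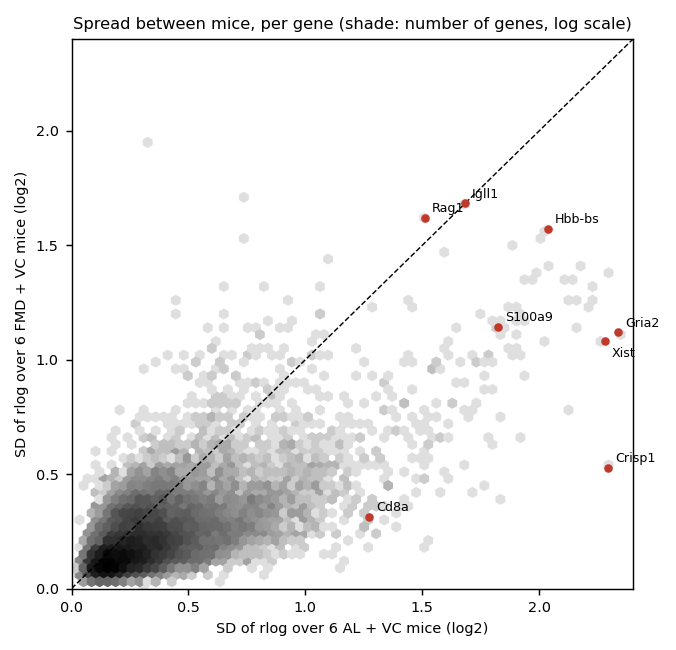
SD of the rlog value over the 6 FMD + VC mice (vertical axis, log2) against the SD over the 6 AL + VC mice (horizontal axis, log2), over all 16557 tested genes, with shade for the number of genes and a dashed line of equal SD. Most genes (77.1%) lie below the line, on the side of the larger SD in AL + VC, and Igll1 and Rag1 are near it.

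There were 30 genes with groups that did not overlap. In 15 every FMD + VC mouse was above every AL + VC mouse (0.0906% of the tested genes), and 15 went the other way (0.0906%). With 6 mice in each group, a gene that separates fully has p = 0.00216 in the exact two-sided permutation test. That fraction of genes would separate in either direction if the group labels were placed at random. The observed share was not above it, so separation is a description here and not a call. Of the 15 higher genes, 13 are not immunoglobulin segments or predicted genes. Among those with the widest gap were Gbp5, Ell3, Gbp2, Capg, Map2k1, Coq10b, Sh3bgrl3, Parp14 and Zbp1. Gbp2 and Gbp5 are interferon-induced GTPases that act against pathogens inside cells, Zbp1 senses nucleic acids and starts cell death, and Parp14 is an interferon-induced ADP-ribosyltransferase. The promoters of Gbp2 and Gbp5 are shown because they hold the letters that interferon-activated factors are known to bind, 250 bases before to 50 after the start given by RefSeq for GRCm38.p6, on the plus strand. Capitals mark the letters of the interferon-stimulated response element (ISRE), searched as GAAA, any 2 bases and GAAA, or on the other strand TTTC, any 2 bases and TTTC, and those of the gamma-activated site (GAS), searched as TTC, any 3 bases and GAA, which reads the same on the other strand.
Gbp2 (chr3:142620413-142620712): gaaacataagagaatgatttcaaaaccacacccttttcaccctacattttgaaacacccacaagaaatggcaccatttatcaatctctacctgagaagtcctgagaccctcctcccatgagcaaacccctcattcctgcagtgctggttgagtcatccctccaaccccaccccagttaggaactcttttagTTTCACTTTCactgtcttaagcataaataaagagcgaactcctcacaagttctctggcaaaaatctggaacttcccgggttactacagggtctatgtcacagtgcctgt
Gbp5 (chr3:142496684-142496983): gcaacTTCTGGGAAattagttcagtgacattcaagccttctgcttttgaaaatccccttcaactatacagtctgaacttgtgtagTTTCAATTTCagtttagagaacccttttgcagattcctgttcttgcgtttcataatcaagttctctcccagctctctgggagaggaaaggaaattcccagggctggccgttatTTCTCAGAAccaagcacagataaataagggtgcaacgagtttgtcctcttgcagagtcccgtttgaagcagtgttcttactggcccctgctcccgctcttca
In Gbp2 the ISRE letters begin 59 bases before the start. In Gbp5 the ISRE letters begin 165 bases before it, and GAS letters begin 245 and 52 bases before it. Of the 15 higher genes 10 were matched to a RefSeq promoter, of which 2 held ISRE letters and 1 GAS letters, and of the 15 lower genes 8 were matched, of which 1 held ISRE letters and 1 GAS letters. Over all 32851 promoters of this length in RefSeq, 3.44% hold the ISRE letters and 8.30% the GAS letters on either strand. The 2 motifs did not overlap in the sequences shown, and a match of letters shows no binding.

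Gbp5 (chromosome 3, 142493978 to 142522344, plus strand of GRCm38, in GENCODE coordinates as for all genes below) had a lowest, median and highest rlog of 9.45, 9.48 and 9.59 in FMD + VC and 8.50, 9.12 and 9.33 in AL + VC. The FMD + VC mice lay within 0.15 of each other and the AL + VC mice were spread over 0.83, and the 2 groups were 0.118 apart. Its log2 difference was 0.50 (SE 0.19, 95% confidence interval 0.11 to 0.89, adjusted p = 0.427 in limma).

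Gbp2 (chromosome 3, 142620602 to 142638008, plus strand) was at 9.20, 9.41 and 9.49 in FMD + VC and 8.44, 9.09 and 9.17 in AL + VC, a log2 difference of 0.45 (adjusted p = 0.458 in limma). The starts that RefSeq gives for Gbp5 and for Gbp2 both lie inside the genes as GENCODE draws them, so the promoters shown may not be those in use. Zbp1 was at 8.49, 8.64 and 8.91 in FMD + VC and 7.58, 7.99 and 8.48 in AL + VC, with a log2 difference of 0.66 (adjusted p = 0.427). In Zbp1, AL + VC mice 13, 14 and 37 were at 7.63, 7.58 and 7.61 and mice 17, 18 and 41 at 8.48, 8.47 and 8.35, all below the FMD + VC mice. Parp14 was at 11.77, 11.87 and 11.98 in FMD + VC and 11.23, 11.60 and 11.76 in AL + VC, a log2 difference of 0.32 (adjusted p = 0.462).

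The wider set of interferon genes was less uniform. Of the 18 interferon-stimulated genes listed, 14 had a higher mean in FMD + VC and 4 a lower mean, with a median log2 difference of 0.25. At an unadjusted p under 0.05, 2 were higher, among them Ddx58, which encodes the RNA sensor RIG-I (10.35, 10.55 and 10.64 in FMD + VC, 9.81, 10.02 and 10.46 in AL + VC, log2 difference 0.42, adjusted p = 0.427 in limma), and 0 were lower. The list's mean level ranged over 7.35 to 8.32 in FMD + VC mice and 7.04 to 8.17 in AL + VC mice, with 4 of 6 AL + VC mice inside the FMD + VC range. The list's median was 0.05 without FMD + VC mouse 42. Of all tested genes 6.27% were higher and 5.07% lower at an unadjusted p under 0.05. The family of guanylate-binding proteins was looked at after the values of Gbp2 and Gbp5 had been seen. Of its 9 tested members 8 had a higher mean in FMD + VC, from Gbp9 at a log2 difference of 0.60 (adjusted p = 0.422) down, and Gbp7 had a lower one at -0.15 (adjusted p = 0.76).

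Of the other genes above AL + VC in every FMD + VC mouse, Map2k1 encodes the kinase MEK1 of the growth factor cascade. It was at 10.29, 10.33 and 10.37 in FMD + VC and 9.60, 10.06 and 10.26 in AL + VC, a log2 difference of 0.35 (SE 0.11, adjusted p = 0.422 in limma). Capg, which caps actin filaments, was at 10.15, 10.23 and 10.38 in FMD + VC and 9.33, 9.96 and 10.12 in AL + VC (log2 difference 0.44, adjusted p = 0.424). The elongation factor gene Ell3, Coq10b of coenzyme Q function and Sh3bgrl3, a small protein with a thioredoxin-like fold, had log2 differences of 0.44, 0.25 and 0.33 (adjusted p = 0.452, 0.537 and 0.427).

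In the other direction 9 of the 15 genes are not predicted genes or clone names, and they share no pathway list. Slc44a3, of the choline transporter-like family, was at 3.85, 3.92 and 4.08 in FMD + VC and 4.27, 5.24 and 6.84 in AL + VC. The FMD + VC mice were close together while AL + VC mice 13, 14 and 37 stood at 5.99, 6.84 and 6.36 and mice 17, 18 and 41 at 4.27, 4.49 and 4.40. Slc44a3 had a log2 difference of -1.45 (SE 0.46, adjusted p = 0.422 in limma). Gpr179, a receptor-like protein known from the retina, had the widest gap, at 3.36, 3.64 and 3.83 in FMD + VC and 4.10, 4.26 and 4.51 in AL + VC (log2 difference -0.68, adjusted p = 0.422), and here the AL + VC mice were close to each other.
Fads6, of the fatty acid desaturase family, was at 5.96, 6.15 and 6.26 in FMD + VC and 6.46, 6.63 and 6.91 in AL + VC (log2 difference -0.50, adjusted p = 0.422). Mtl5, which encodes the testis protein tesmin, was at 2.99, 3.20 and 3.27 in FMD + VC and 3.38, 3.92 and 4.20 in AL + VC (log2 difference -0.69, adjusted p = 0.422). Mtl5, Gpr179 and the neuropeptide gene Gal (2.53, 2.72 and 2.76 in FMD + VC and 2.77, 2.88 and 3.45 in AL + VC) were among the genes with few reads. Gal was under the minimum of 3.32 in every FMD + VC and AL + VC mouse but AL + VC mouse 37. It was tested only because the minimum applied to the mean over all 24 mice, so its separation lies below that minimum. Mtl5 was below the minimum in every FMD + VC mouse and above it in every AL + VC mouse, so its separation lies across it. Syngr1, a synaptic vesicle protein, Ldlrad4, which restrains TGF-beta signalling, Mroh2a and Ibtk, which binds Bruton's tyrosine kinase, had log2 differences of -0.94, -0.26, -0.34 and -0.15 (adjusted p = 0.427, 0.538, 0.422 and 0.658). The count of 30 was 182 without AL + VC mouse 18, 163 without FMD + VC mouse 45, 145 without AL + VC mouse 41, 109 without FMD + VC mouse 42, 76 without AL + VC mouse 17 and 54 without FMD + VC mouse 30, and it lay between 31 and 44 without any other mouse. With a mouse left out, full separation is more frequent under random labels. These counts are thus not comparable with 30, and a larger one is not by itself more separation.

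**Figure D2:**
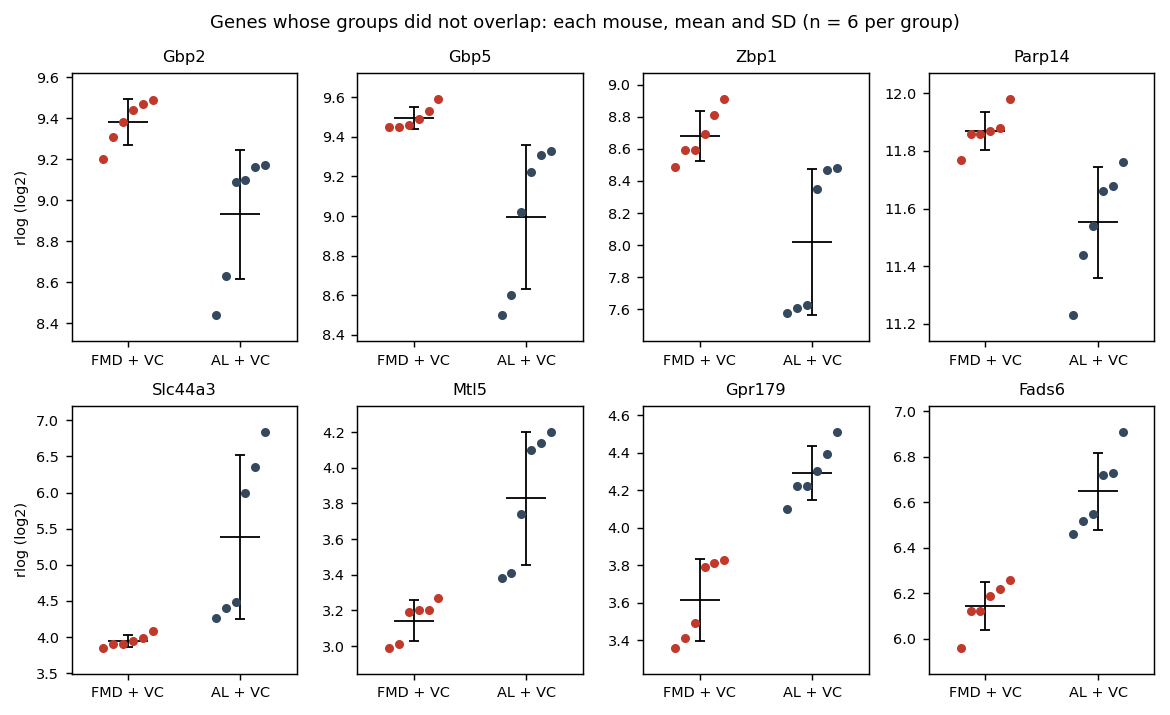
The rlog value (vertical axis, log2) of each FMD + VC mouse (red, left) and AL + VC mouse (dark, right) for 4 interferon-related genes with every FMD + VC mouse higher and 4 genes with every FMD + VC mouse lower, with bars for the mean and SD (n = 6 each). For Gbp5 the lowest FMD + VC mouse is at 9.45 and the highest AL + VC mouse at 9.33.

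Ranked by p, the gene with the highest mean difference relative to its error was Ly6k, which encodes a surface protein of the LY6 family known from the testis. Ly6k (chromosome 15, 74796874 to 74799986, minus strand) was at 4.78, 5.17 and 5.42 in FMD + VC and 3.27, 4.07 and 4.78 in AL + VC. The groups overlapped in 1 mouse, AL + VC mouse 17, which stood at 4.78. The log2 difference was 1.09 (SE 0.20, adjusted p = 0.136 in limma, exact permutation p = 0.00433), and it was past the threshold without mouse 17. In the other direction it was Tmem79, a membrane protein known from the skin barrier, at 3.15, 3.24 and 3.74 in FMD + VC and 3.74, 3.96 and 4.28 in AL + VC. FMD + VC mouse 42, at 3.74, was the only mouse of its group inside the AL + VC range. The FMD + VC median of Tmem79, 3.24, was below the minimum of 3.32. The log2 difference of Tmem79 (chromosome 3, 88328655 to 88336148, minus strand) was -0.67 (SE 0.12, adjusted p = 0.136, exact permutation p = 0.00433).

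The other genes of smallest p with a higher mean in FMD + VC were Fcamr, Xcr1, Cxcl13, Cd52, Rasgef1b, Adgb, Pxdc1, Gal3st2 and Ddx41. Fcamr, the receptor for the Fc part of IgA and IgM that follicular cells carry, was at 6.96, 7.56 and 8.02 in FMD + VC and 4.36, 5.87 and 7.33 in AL + VC. AL + VC mice 17 and 18 lay inside the FMD + VC range and the other 4 below it. The log2 difference of Fcamr was 1.59, a factor of 3.0 (SE 0.38, adjusted p = 0.422 in limma, exact permutation p = 0.0108). Xcr1, the chemokine receptor of cross-presenting dendritic cells, was at 6.70, 6.98 and 7.59 in FMD + VC and 5.04, 5.59 and 7.41 in AL + VC (log2 difference 1.18, adjusted p = 0.422). Only AL + VC mouse 18, at 7.41, was inside the FMD + VC range.
Cxcl13 (chromosome 5, 95956951 to 95961068, plus strand), the chemokine that draws B cells into follicles, was at 10.60, 10.80 and 11.03 in FMD + VC and 8.63, 9.89 and 11.08 in AL + VC. The 6 FMD + VC mice were within 0.43 of each other, AL + VC mouse 18 was above all of them and the other 5 AL + VC mice were below. Its log2 difference was 1.04 (SE 0.27, adjusted p = 0.422, exact permutation p = 0.0152). Cd52, a surface glycoprotein of lymphocytes, was at 11.00, 11.68 and 11.89 in FMD + VC and 10.15, 10.70 and 11.48 in AL + VC (log2 difference 0.83). Rasgef1b, a Ras exchange factor, Adgb, a globin-related protein, Pxdc1, Gal3st2, a sulfotransferase, and Ddx41, a helicase, had log2 differences of 0.78, 0.90, 0.79, 0.73 and 0.26, each with an adjusted p of 0.422 in limma.

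The genes of smallest p with a lower mean in FMD + VC were, beside Tmem79 and Mtl5, Spry1, Hdc, Ccdc57, Rab44, Padi4, Hmgb1, mt-Rnr2 and Pi16. Spry1, which restrains signalling from receptor tyrosine kinases to RAS, was at 6.11, 6.58 and 7.10 in FMD + VC and 7.05, 7.40 and 7.78 in AL + VC (log2 difference -0.80, SE 0.17, adjusted p = 0.363 in limma). Only FMD + VC mouse 45, at 7.10, reached the AL + VC range. Hdc, the enzyme that makes histamine, was at 4.42, 4.79 and 5.48 in FMD + VC and 5.04, 5.96 and 6.46 in AL + VC (log2 difference -0.99). Rab44, a large RAB GTPase of mast cells and granulocytes, and Padi4, which citrullinates histones in neutrophils, had log2 differences of -1.28 and -1.02, and Ccdc57 and Pi16 had -0.84 and -0.77, each with an adjusted p of 0.422.
Hmgb1, a chromatin protein that acts as an alarm signal when released, was at 8.12, 8.31 and 8.47 in FMD + VC and 8.37, 8.71 and 9.00 in AL + VC (log2 difference -0.37, SE 0.10, adjusted p = 0.422). AL + VC mice 18 and 41 lay inside the FMD + VC range. The mitochondrial ribosomal RNA mt-Rnr2 had a log2 difference of -0.96 (adjusted p = 0.422), with a range of 10.10 to 11.61 over FMD + VC mice and 11.14 to 13.32 over AL + VC mice, and FMD + VC mouse 42, the mouse with most Gm26917, was the lowest.

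**Figure D3:**
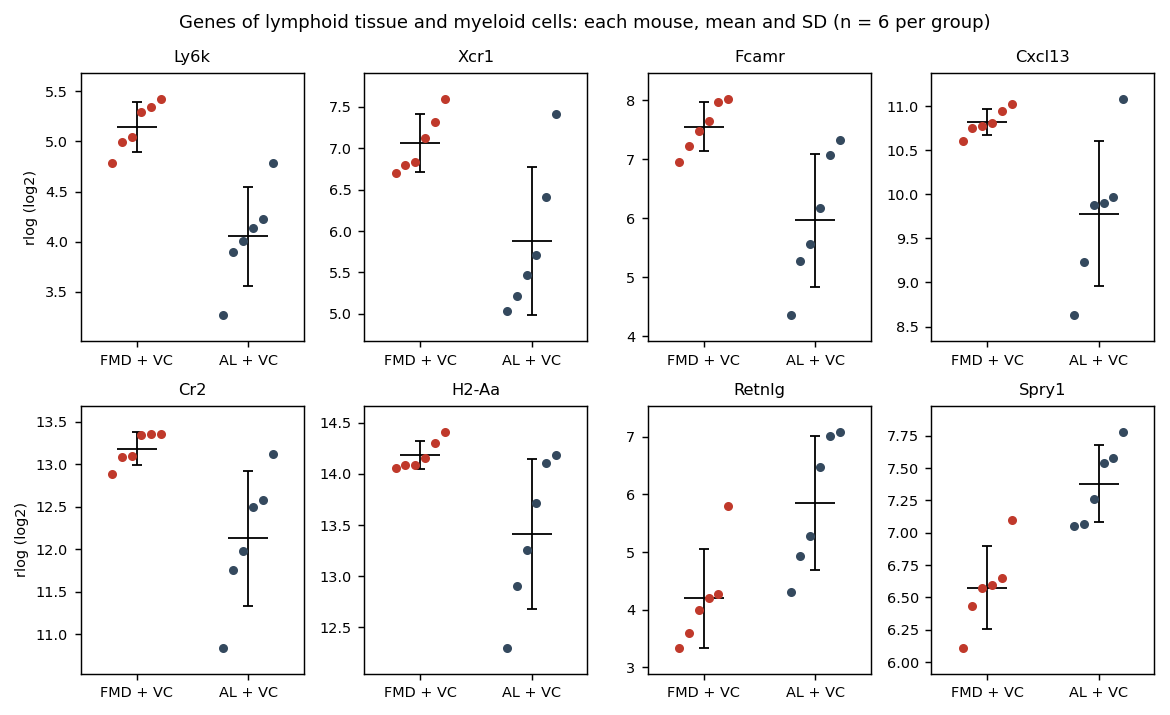
The rlog value (vertical axis, log2) of each FMD + VC mouse (red, left) and AL + VC mouse (dark, right) for 6 genes with a higher mean in FMD + VC (Ly6k, Xcr1, Fcamr, Cxcl13, Cr2 and H2-Aa) and 2 with a lower mean (Retnlg and Spry1), with bars for the mean and SD (n = 6 each). The FMD + VC mice are closer together than the AL + VC mice for Cr2 and H2-Aa, whose AL + VC values reach down to 10.84 and 12.30.

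Genes of mature B cells, MHC class II and T cells had higher means in FMD + VC throughout their lists, and none passed the test. All 18 mature B cell genes had a higher mean, 15 of them at an unadjusted p under 0.05, with a median log2 difference of 0.69. All 11 genes of MHC class II presentation did, 11 at an unadjusted p under 0.05, with a median of 0.73. All 17 T cell genes did, 10 at an unadjusted p under 0.05, with a median of 0.70. Over all tested genes 6.27% were higher at that p. The smallest adjusted p of each list was 0.422 in limma, and dropping 1 mouse at a time moved the medians over 0.43 to 0.80 for mature B cells, 0.49 to 0.88 for MHC class II and 0.52 to 0.90 for T cells. These counts rest on the estimate of the spread and on single mice. In a fit of only the 12 mice they were 16 for mature B cells, 10 for MHC class II and 4 for T cells, and with Xist as a covariate 4, 2 and 0. Without 1 mouse they ranged from 8 to 17, 8 to 11 and 2 to 12, with the T cell count at 2 without AL + VC mouse 13 or 14 and at 4 without AL + VC mouse 37 or FMD + VC mouse 46. The lists are not independent of each other, since the same AL + VC mice, 13, 14 and 37, had the lowest means in each.

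Cr2 (chromosome 1, 195136811 to 195176716, minus strand), the complement receptor of follicular and marginal zone B cells, was at 12.88, 13.21 and 13.35 in FMD + VC and 10.84, 12.24 and 13.12 in AL + VC. Mouse 18 was the only AL + VC mouse inside the FMD + VC range, and mouse 14 was the lowest. For Cr2 the log2 difference was 1.06 (SE 0.29, adjusted p = 0.422 in limma, exact permutation p = 0.00866). Fcer2a, the low-affinity receptor for IgE on follicular B cells, was at 9.91, 11.15 and 11.41 in FMD + VC and 8.22, 9.48 and 11.14 in AL + VC (log2 difference 1.25, adjusted p = 0.422). Ms4a1, which encodes CD20, and Fcmr, the receptor for IgM, had log2 differences of 0.95 and 1.01 (adjusted p = 0.422 and 0.422). The MHC class II genes H2-Eb1, H2-Ab1 and H2-Aa, which present peptides to helper T cells, had log2 differences of 0.83, 0.81 and 0.78, and their adjusted p was 0.422 each. H2-Aa was at 14.06, 14.13 and 14.41 in FMD + VC and 12.30, 13.49 and 14.18 in AL + VC, so that the FMD + VC mice spanned 0.35 and the AL + VC mice 1.88.

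Germinal centre genes had a median log2 difference of 0.45 (4 of 8 higher at an unadjusted p under 0.05), and by p the first was Bcl6, the master regulator of germinal centre B cells, at 9.43, 10.10 and 10.40 in FMD + VC and 8.18, 9.12 and 10.15 in AL + VC (log2 difference 0.80, adjusted p = 0.422 in limma). Plasma cell genes had a median of 0.23 (1 of 9 higher). For these lists and those that follow, the shares over all tested genes at that p were 6.27% higher and 5.07% lower. Among T cell genes Cd3g, a chain of the CD3 complex, was at 8.69, 9.29 and 9.76 in FMD + VC and 7.09, 8.38 and 9.35 in AL + VC (log2 difference 0.99, adjusted p = 0.422). Cd8a, of the cytotoxic T cell coreceptor, was at 9.39, 9.85 and 10.24 in FMD + VC and 7.38, 8.83 and 10.13 in AL + VC (log2 difference 0.99, adjusted p = 0.427). For both, AL + VC mice 17, 18 and 41 were inside the FMD + VC range and mice 13, 14 and 37 below it.
Naive T cell genes had a median of 0.47, with Dapl1, a gene of naive T cells, at a log2 difference of 1.43 (adjusted p = 0.424). Cytotoxic and NK cell genes had a median of 0.24 (3 of 13 higher at an unadjusted p under 0.05), with Eomes, a transcription factor of effector cells, at 0.72 and the chemokine Ccl5 at 0.65. Checkpoint genes had a median of 0.28 (4 of 12 higher), with the costimulatory receptor Icos at 0.53 and Cd274, which encodes PD-L1, at 0.44 (adjusted p = 0.427 each). Foxp3, the factor of regulatory T cells, was at 0.52 (adjusted p = 0.427). Of the 8 regulatory T cell genes 6 had a higher mean, 3 at an unadjusted p under 0.05, and 2 a lower one (median 0.33), with the lowest value for Il2ra, the alpha chain of the IL-2 receptor, at -0.93 (adjusted p = 0.52).

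Dendritic cell genes had a median log2 difference of 0.44 (4 of 12 higher at an unadjusted p under 0.05), and their mean level ranged over 8.07 to 8.31 in FMD + VC mice and 7.29 to 8.25 in AL + VC mice. Beside Xcr1, Cd209a, a lectin of dendritic cells, was at 5.38, 6.25 and 6.48 in FMD + VC and 3.49, 4.83 and 6.45 in AL + VC (log2 difference 1.27, adjusted p = 0.422 in limma). Itgax, which encodes CD11c, had a log2 difference of 0.59 (adjusted p = 0.431). The share of all tested genes that were higher at an unadjusted p under 0.05 was 6.27%. Of 10 lymphoid stroma genes 2 were higher at an unadjusted p under 0.05, Cxcl13 and Madcam1, the adhesion molecule of the marginal sinus, which was at 6.98, 7.35 and 7.68 in FMD + VC and 5.89, 6.55 and 7.36 in AL + VC (log2 difference 0.80, adjusted p = 0.422). The 18 genes of monocytes and red pulp macrophages had a median of -0.16 and 0 had an unadjusted p under 0.05. MHC class I genes had a median of 0.24 (3 of 11 higher), with the immunoproteasome subunit gene Psmb8 at 0.33 and B2m, the light chain of MHC class I, at 0.35 (adjusted p = 0.427 and 0.448).

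Genes of neutrophils, erythroid cells and platelets had lower means in FMD + VC, and again none passed. Of 6 genes of neutrophil primary granules, made in precursors, 6 had a lower mean and 4 an unadjusted p under 0.05 (median log2 difference -1.25). Of 9 genes of later granules 7 had a lower mean, 6 at that p (median -1.37). Of 9 genes of mature neutrophils 7 had a lower mean, 5 at that p (median -0.56). Over all tested genes 5.07% were lower at that p. In a fit of only the 12 mice these counts were 2 for primary granules, 1 for later granules, where 1 gene was higher at that p, and 2 for mature neutrophils. The count for later granules was also 1 without FMD + VC mouse 30 or 46 or AL + VC mouse 13, 14 or 37. Over all tested genes 726 were lower at that p in the fit of 12 mice, and 310 to 611 in those fits without a mouse. Retnlg (chromosome 16, 48872621 to 48874496, plus strand), a secreted protein of mature neutrophils, was at 3.34, 4.10 and 5.79 in FMD + VC and 4.31, 5.87 and 7.08 in AL + VC. FMD + VC mouse 45, at 5.79, was inside the AL + VC range, and the other 5 were at or below 4.27. For Retnlg the log2 difference was -1.65 (SE 0.46, adjusted p = 0.422 in limma, exact permutation p = 0.0238).
Ms4a3, a membrane protein of granulocyte precursors, was at 2.30, 2.58 and 3.57 in FMD + VC and 2.44, 3.97 and 5.29 in AL + VC (log2 difference -1.30, adjusted p = 0.422). The granule proteases Ctsg and Elane had log2 differences of -1.28 and -1.21, Lcn2, which binds iron-carrying siderophores, and Ngp had -1.54 and -1.50, and S100a9, a subunit of calprotectin, had -1.60 (adjusted p from 0.424 to 0.436). For Elane the AL + VC mice 13, 14 and 37 were at 6.73, 6.87 and 7.27 and mice 17, 18 and 41 at 3.63, 4.47 and 3.41, inside the FMD + VC range of 3.25 to 5.79. Of 10 mast cell and basophil genes 5 were tested, and the median was -0.99.

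All 16 tested erythroid genes had a lower mean in FMD + VC, with a median log2 difference of -1.25, and 0 had an unadjusted p under 0.05 in the fit of 24 mice. In a fit of only the 12 mice 6 had, and with library weights 9. Over all tested genes 726 and 3380 were lower at that p in these fits, against 840 in the fit of 24 mice. The median was -0.73 without AL + VC mouse 14 and -1.60 without FMD + VC mouse 45. Gata1, the transcription factor of red cell precursors, was at 5.46, 5.86 and 6.92 in FMD + VC and 6.10, 6.90 and 8.88 in AL + VC, with the highest value in mouse 14 (log2 difference -1.18, SE 0.65, adjusted p = 0.475 in limma, exact permutation p = 0.0216). Tfrc, the transferrin receptor, was at -0.80 and Alas2, the erythroid enzyme that starts heme synthesis, at -0.73 (adjusted p = 0.499 and 0.757). The 12 megakaryocyte and platelet genes all had a lower mean (median -0.61, 2 at an unadjusted p under 0.05), among them Gp1ba, a chain of the platelet receptor for von Willebrand factor, at -0.62 and Vwf, that factor itself, at -0.67 (adjusted p = 0.427 and 0.44).
The mature B cell and later granule lists ran in opposite directions across the AL + VC mice, while the erythroid list split them otherwise, with mouse 14 highest and mouse 18 next. Mice 13, 14 and 37 had mature B cell means of 10.68, 9.96 and 10.89, and later granule means of 9.38, 9.45 and 9.09. Mice 17, 18 and 41 had mature B cell means of 11.60, 11.69 and 11.55, and later granule means of 6.80, 7.46 and 6.94. The FMD + VC mice ranged over 11.37 to 11.94 and 6.45 to 8.50. As log2 of the summed 2 to the power of rlog, the 16 erythroid genes ranged over 11.73 to 13.86 over FMD + VC mice and 11.98 to 16 over AL + VC mice, and the later granule genes over 12.62 to 13.07 and 12.46 to 13.25. The part of these cell types in the lymphoid values was not tested.

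**Figure D4:**
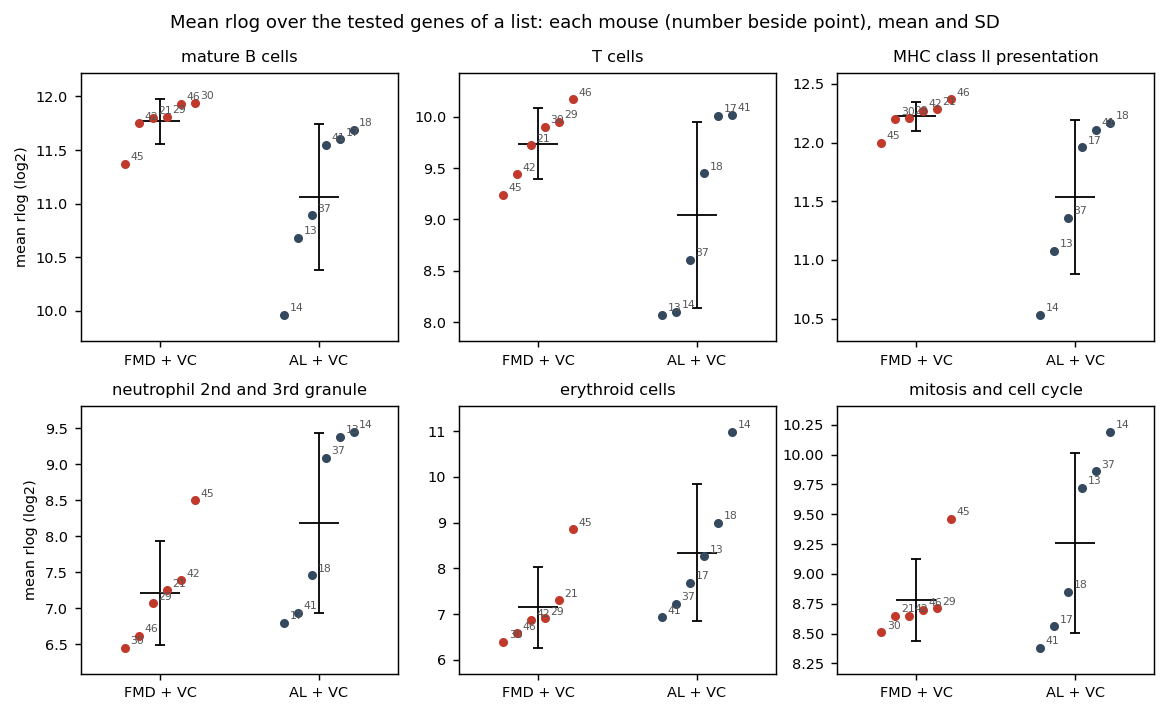
Mean rlog over the tested genes of 6 lists (vertical axis, log2) in each FMD + VC mouse (red, left) and AL + VC mouse (dark, right), with the mouse number beside the point and bars for the mean and SD (n = 6 each). AL + VC mouse 14 has the lowest mature B cell mean (9.96) and the highest erythroid mean (10.98) of the 12 mice.

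The pre-B and leukemia list, of genes that lymphocyte precursors and this leukemia may share, had members in both directions. Of its 13 tested genes 5 had a higher and 8 a lower mean in FMD + VC (median log2 difference -0.15), and 1 had an unadjusted p under 0.05. Its mean level in FMD + VC was 8.64 in mouse 45 and 7.39 to 7.49 in the other 5. In AL + VC it was 8.66, 8.06 and 8.25 in mice 13, 14 and 37, the mice lowest for B cell, T cell and MHC class II genes, and 7.54, 7.41 and 7.65 in mice 17, 18 and 41. When the Vpreb1 and Igll1 level was added to the fit, 8 mature B cell, 8 MHC class II and 2 T cell genes were higher at an unadjusted p under 0.05. Over all tested genes 527 were higher at that p with this covariate, against 1038 without it. The pre-B gene at that p without the covariate was Erg, a transcription factor of blood progenitors and megakaryocytes, at 7.23, 7.52 and 8.95 in FMD + VC and 7.84, 8.92 and 9.74 in AL + VC (log2 difference -1.18, SE 0.39, adjusted p = 0.422 in limma). Myb, a factor of dividing progenitors, had a log2 difference of -0.67 and Igll1 of -1.06 (adjusted p = 0.447 and 0.579). A transcript of the GFP carried by the injected cells was not analysed here.

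Vincristine acts on tubulin and on dividing cells, and genes of both were measured. All 21 mitosis and cell cycle genes had a lower mean in FMD + VC, with a median log2 difference of -0.50 and a range of -0.57 to -0.21, and 1 had an unadjusted p under 0.05, Bub1b, a kinase of the spindle checkpoint. Bub1b was at 9.18, 9.22 and 10.07 in FMD + VC and 9.08, 9.91 and 10.62 in AL + VC (log2 difference -0.54, SE 0.23, adjusted p = 0.427 in limma). Without AL + VC mouse 14 the list's median was -0.31, and without AL + VC mouse 41 it was -0.70. Among all tested genes 5.07% were lower and 6.27% higher at an unadjusted p under 0.05. These shares also stand beside the counts for replication, tubulin, efflux pump, p53 and apoptosis genes. Of 18 replication genes 17 had a lower mean (median -0.37), 3 at an unadjusted p under 0.05, among them Gins2 of the replicative helicase at -0.52 and Tyms, which makes thymidylate, at -0.59 (adjusted p = 0.427 and 0.432). Of 14 tubulin genes 0 had an unadjusted p under 0.05 (median -0.14), with the common alpha chain Tuba1b at -0.42 and the platelet beta chain Tubb1 at -0.47.
Of 8 tested efflux pump genes 1 had an unadjusted p under 0.05, Abcc5, a pump of cyclic nucleotides and drugs, at 9.64, 9.88 and 9.89 in FMD + VC and 9.84, 10.12 and 10.27 in AL + VC (log2 difference -0.26, adjusted p = 0.422 in limma). The P-glycoprotein genes Abcb1a and Abcb1b, whose product carries vincristine out of cells, had log2 differences of 0.40 (95% confidence interval -0.05 to 0.84) and -0.21 (-0.53 to 0.11). The p53 target genes had a median of 0.00 over 14 genes, and 1 was lower at an unadjusted p under 0.05, Perp, a membrane protein of p53-driven cell death, at 2.63, 2.91 and 3.36 in FMD + VC and 3.26, 3.53 and 4.18 in AL + VC (log2 difference -0.63, adjusted p = 0.427). The 15 apoptosis regulators had a median of 0.03, and 3 were higher at that p, the death agonist Bid at 0.23 and the survival factors Mcl1 and Birc3 at 0.35 and 0.39 (adjusted p = 0.422, 0.427 and 0.427).

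Autophagy genes were measured to ask how the diet acts with the drug. As over all 16557 tested genes, 0 of them passed the test, which is thus no result about autophagy. Ulk1, the kinase at the start of the pathway, was at 9.06, 9.22 and 9.46 in FMD + VC and 9.19, 9.35 and 10.05 in AL + VC. All but mouse 14 of AL + VC, at 10.05, were inside the FMD + VC range. The log2 difference of Ulk1 was -0.22 (95% confidence interval -0.62 to 0.18, adjusted p = 0.649 in limma, exact permutation p = 0.121). Atg9a was at 7.76, 7.83 and 7.92 in FMD + VC and 7.57, 7.95 and 8.64 in AL + VC (log2 difference -0.18, adjusted p = 0.678 in limma). Atg9b, its relative, was at 3.32, 3.55 and 4.43 in FMD + VC and 3.35, 4.28 and 5.08 in AL + VC. For Atg9b 3 AL + VC mice were inside the FMD + VC range and 3 above it. The log2 difference of Atg9b was -0.59 (95% confidence interval -1.18 to 0.01, adjusted p = 0.44 in limma). Sqstm1, which carries cargo to autophagosomes, was at 11.11, 11.32 and 11.41 in FMD + VC and 10.63, 11.16 and 11.43 in AL + VC. Its log2 difference was 0.21 (95% confidence interval -0.07 to 0.49, adjusted p = 0.519 in limma, exact permutation p = 0.154). Becn1, of the lipid kinase complex, had a log2 difference of -0.08 (95% confidence interval -0.33 to 0.18). Map1lc3b, which encodes LC3B of the autophagosome membrane, had one of 0.00 (-0.21 to 0.22). With library weights, under which 4966 genes passed, limma's adjusted p was 0.00355 for Atg9b and 0.0234 for Sqstm1. Ulk1, Atg9a, Becn1 and Map1lc3b passed under no setting.
By step of the pathway, 11 initiation genes had a median of -0.06, 7 nucleation genes 0.15, 15 conjugation genes 0.00, 10 receptors 0.07 and 15 lysosome genes 0.11. Of these 58 genes 3 had an unadjusted p under 0.05, among them Pik3r4 and Atg14. That is not above the share over all tested genes, of which 6.27% were higher and 5.07% lower at that p. Pik3r4, the regulatory subunit of the lipid kinase that starts the membrane, was at 10.23, 10.32 and 10.55 in FMD + VC and 9.72, 10.05 and 10.38 in AL + VC, with AL + VC mouse 41 alone inside the FMD + VC range (log2 difference 0.29, SE 0.09, adjusted p = 0.422 in limma). Atg14, of the same complex, was at 7.75, 7.86 and 8.15 in FMD + VC and 8.02, 8.07 and 8.21 in AL + VC (log2 difference -0.21, adjusted p = 0.427). Fez1 was below the minimum, at 1.91 to 2.68 over the 12 mice, with an exact permutation p of 0.723.

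Genes of the response to fasting had a median log2 difference of -0.34 over 15 genes, 12 of them with a lower mean in FMD + VC. At an unadjusted p under 0.05 4 were lower and 1 higher, where 5.07% of all tested genes were lower and 6.27% higher. The glucocorticoid-induced gene Klf9, a transcription factor, was at 7.94, 8.28 and 9.03 in FMD + VC and 8.57, 8.84 and 9.14 in AL + VC (log2 difference -0.46, SE 0.15, adjusted p = 0.422 in limma). Fkbp5, a chaperone partner that limits the glucocorticoid receptor, was at 10.35, 10.49 and 11.33 in FMD + VC and 10.37, 11.49 and 12.31 in AL + VC (log2 difference -0.68, adjusted p = 0.427). The clock gene Per1, which glucocorticoids also induce, was at -0.34, and Foxo1, a factor held back by insulin signalling and needed in B and T cells, was at 0.57 (adjusted p = 0.427 and 0.427). The time between the last diet cycle and collection of the spleen is not known here.
Of 12 genes of the insulin and IGF axis 2 were higher at that p, Igfbp5, a binding protein of IGFs, at 9.44, 10.86 and 11.05 in FMD + VC and 8.07, 9.13 and 11.12 in AL + VC (log2 difference 1.10, adjusted p = 0.424), and Igf2r, which clears IGF2, at 0.40 (adjusted p = 0.427). Igf1 itself had a log2 difference of 0.12 (95% confidence interval -0.12 to 0.36). All 15 cholesterol genes had a higher mean, with a median of 0.20, and 1 had an unadjusted p under 0.05, Sc5d, an enzyme late in cholesterol synthesis, at 0.25 (adjusted p = 0.427). Glycolysis genes had a median of -0.11 and ATF4 stress genes of 0.02, where the cystine carrier Slc7a11 was at 0.48 (adjusted p = 0.432).
Of 13 clock genes Arntl, which encodes BMAL1, was at 7.86, 8.04 and 8.17 in FMD + VC and 6.92, 7.65 and 8.01 in AL + VC (log2 difference 0.50, adjusted p = 0.422), and the list's median was -0.04. Of 11 immediate-early genes 2 were higher at an unadjusted p under 0.05, Egr3 at 6.98, 7.98 and 8.28 in FMD + VC and 5.49, 6.74 and 7.85 in AL + VC (log2 difference 1.14, adjusted p = 0.422) and Egr2 at 0.70 (adjusted p = 0.427), both transcription factors induced by antigen receptors. Heat shock chaperones had a median of 0.13 over 10 genes, with 0 at an unadjusted p under 0.05. For the IGF, cholesterol, immediate-early and heat shock counts, the share of all tested genes that were higher at that p was 6.27%.

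**Figure D5:**
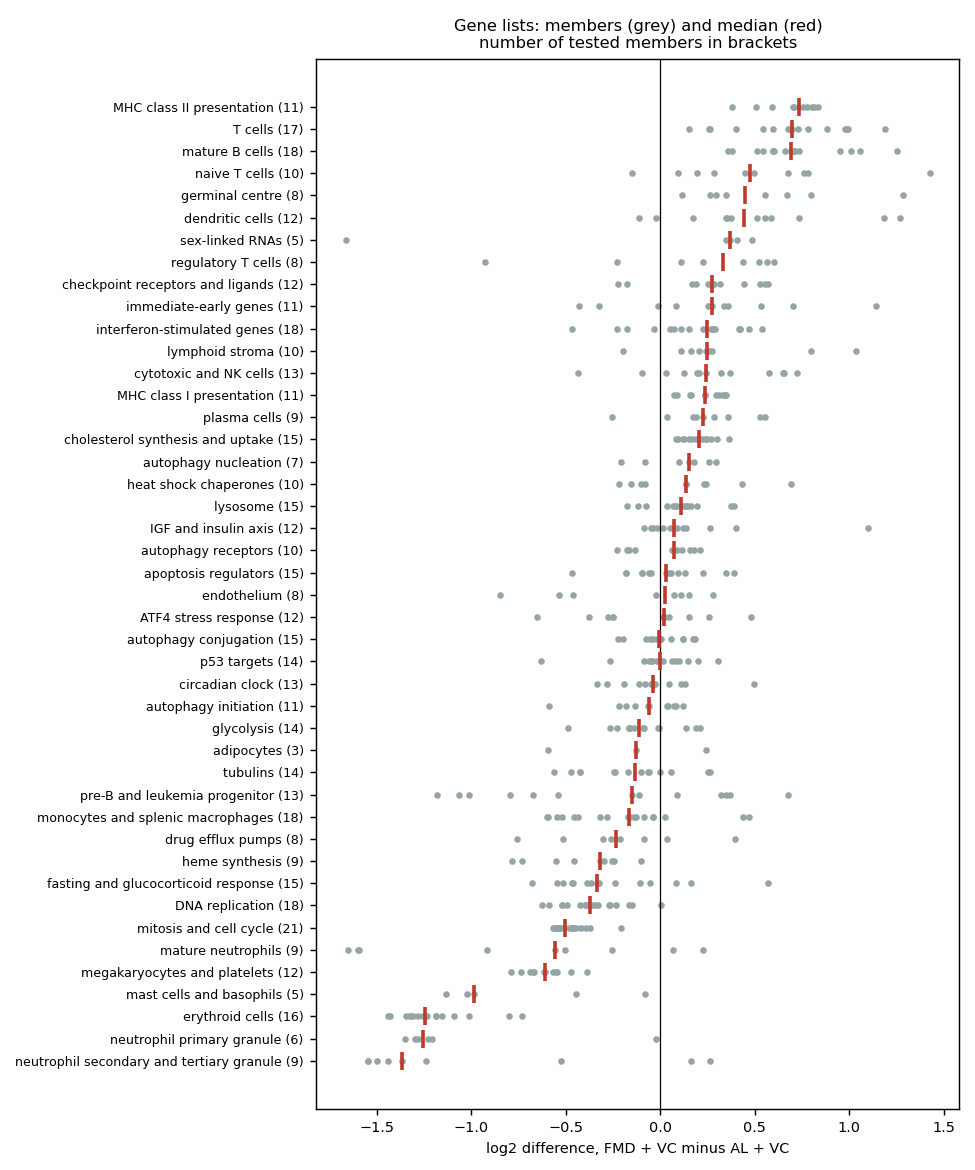
Log2 fold change of FMD + VC over AL + VC (horizontal axis) for each tested member (grey points) of 44 gene lists (vertical axis, number of tested members in brackets), with the median of each list as a red bar. MHC class II, T cell and mature B cell genes have the highest medians (0.73, 0.70 and 0.69), and the later neutrophil granule genes the lowest (-1.37).

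The same diet without vincristine was set beside these values. Its 12 mice give neither mean of the comparison of FMD + VC with AL + VC but enter its estimate of the spread and the minimum level. The authors caution that AL and FMD spleens may hold more leukemic cells than those of mice given vincristine. They give a comparison of AL with FMD limited value for that reason. In limma 0 of 16557 genes differed between FMD and AL at the threshold, with 0.934 as the smallest adjusted p, and 707 did so without adjustment at p under 0.05. The mean of FMD minus that of AL, in log2, was 0.64 for Cr2, 0.63 for Fcer2a and 0.69 for Fcamr, with the same sign as with vincristine (1.06, 1.25 and 1.59). For Gbp5 it was 0.17 and for Gbp2 -0.13. For Ly6k it was -0.19, for Xcr1 0.13 and for Tmem79 0.18, where the values with vincristine were 1.09, 1.18 and -0.67. The difference between the contrasts was tested as an interaction of diet and vincristine, which 0 of 16557 genes passed in limma, where the smallest adjusted p was 0.924 and 504 genes had an unadjusted p under 0.05. The interaction estimate was 1.28 for Ly6k (adjusted p = 0.924), -0.85 for Tmem79 (adjusted p = 0.924), 0.58 for Gbp2 and 0.42 for Cr2 (adjusted p = 0.999 for both). By list, the median of FMD minus AL was 0.53 for mature B cells, 0.34 for MHC class II, 0.31 for T cells, -0.46 for erythroid cells and -0.31 for the later neutrophil granules. With library weights 657 genes passed the interaction and 2 the comparison of FMD with AL.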

How the data were processed

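Spleen RNA of 12 mice (6 FMD + VC and 6 AL + VC) and of 12 mice without vincristine (6 FMD and 6 AL) was used, with groups taken from the treatment labels. Libraries were made from total RNA with ribosomal RNA removed and were read from a single end. The authors aligned reads with HISAT2 2.1.0 against GRCm38, assigned them to genes with HTSeq 0.6.1 and made the deposited log2 values with the rlog transformation of DESeq2, which scales by size factors and shrinks genes with few reads. The methods name a human annotation although the gene names are of the mouse. Reads over several genes were dropped (intersection-strict mode), so genes that overlap others may have lost reads, and whether HTSeq used strand was not given in the sources used here. Only transformed values were used, so no count test was run, the depth per sample is unknown, and precision is set by how far mice of a group differ.

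Genes whose mean rlog reached 3.32 were compared in R 4.3.3 by limma 3.58.1, fitting a mean for each group of the 24 mice (20 residual degrees of freedom), with a mean-variance trend in eBayes and Benjamini-Hochberg adjustment over 16557 genes with a threshold of 0.05. The code was tested on simulated data. Single genes and the spread between mice were also tested by exact two-sided permutation over 924 assignments, where the smallest p possible is 0.00216, and these p-values are not adjusted. For the spread, distances to the group median were computed once from the labelled groups and then permuted, so that p is approximate. Named genes are the 10 of smallest p in each direction, up to 4 members of each of 45 gene lists by p, the genes whose groups did not overlap with the widest gaps (10 in each direction at most), the 5 of largest SD in each group, and Ulk1, Atg9a, Atg9b, Sqstm1, Fez1, Becn1, Map1lc3b and Xist. Immunoglobulin and T cell receptor segments, predicted genes, 21 rows with a date for a name and 126 with a shared name were tested but not named by these rules, and Gbp7 and Gbp9 were added after seeing their values. Some genes that these rules name are not reported here. The comparison, the lists and these rules were chosen with earlier results of these data known. Other settings were no minimum, a minimum of 50, quantile normalization, fitting the 12 mice without the rest, library or group weights (arrayWeights), no trend, a robust fit, 3 covariates (Xist, the mean of Vpreb1 and Igll1, or Gm26917), and leaving out each mouse in turn. Coordinates are from GENCODE for GRCm38 and promoters from RefSeq for GRCm38.p6. Python 3.11.15 with matplotlib 3.10.9 made the figures.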

Additional observations from a re-analysis of the deposited data

Results flagged for a closer look

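Of the 122 genes with a value in the report, each checked in both groups, 24 had a mouse far from the other 5 of its group, with a gap to the nearest mouse, as a share of the range of the group, above the 95% critical value of Dixon for 6 values. For a gene chosen without regard to its values, chance alone gives this in about 1 in 20 groups. Igll1 and Rag1 were named for their large SD in FMD + VC, and genes of a mouse can vary together. The count of 24 is therefore not a test. FMD + VC mouse 45 was the mouse apart in 14 of them. It was high for Rab44 at 5.22 (others 3.96 to 4.25), Gbp7 at 10.39 (others 9.91 to 10.03), Mrgpra1 at 7.74 (others 4.54 to 5.73), Igll1 at 7.16 (others 2.89 to 3.25), Rag1 at 7.66 (others 3.37 to 4.04), Erg at 8.95 (others 7.23 to 7.56), Myb at 10.37 (others 9.14 to 9.44), Ms4a3 at 3.57 (others 2.30 to 2.74), Tfrc at 12.01 (others 10.85 to 11.03), Bub1b at 10.07 (others 9.18 to 9.30) and Tyms at 8.34 (others 7.52 to 7.79). It was low for Pxdc1 at 8.90 (others 9.49 to 9.69), Igfbp5 at 9.44 (others 10.75 to 11.05) and Egr3 at 6.98 (others 7.87 to 8.28). The high genes include the pre-B cell genes Igll1 and Rag1, the progenitor genes Erg and Myb and the mitotic gene Bub1b, and the mouse was also the farthest from the median profile of its group (0.428). FMD + VC mouse 42, with the highest share of Gm26917, stood apart for Tmem79 at 3.74 (others 3.15 to 3.38), mt-Rnr2 at 10.10 (others 11.08 to 11.61) and Pik3r4 at 10.55 (others 10.23 to 10.33). FMD + VC mouse 46 did for Abcc5 at 9.64 (others 9.83 to 9.89). AL + VC mouse 14, which had the highest erythroid mean, stood apart for Ell3 at 4.75 (others 5.27 to 5.47), Syngr1 at 6.21 (others 4.89 to 5.29), Ibtk at 11.32 (others 10.87 to 10.97) and Ulk1 at 10.05 (others 9.19 to 9.43). AL + VC mouse 37 did for Gal at 3.45 (others 2.77 to 2.95). AL + VC mouse 18 did for Igf1 at 10.03 (others 9.22 to 9.49). A cause of these values was not tested.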

How the results depend on the processing

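The count of genes past the threshold between FMD + VC and AL + VC was 0 under all settings but library weights (4966) and the fits without FMD + VC mouse 42 (1), AL + VC mouse 17 (1) and AL + VC mouse 18 (12). Library weights gave 657 genes for the interaction and 2 for FMD against AL, and called 106 of 122 named genes. The other settings of FMD against AL were chosen after seeing the data. The count at an unadjusted p under 0.05 was 2948 without a minimum, 6844 with library weights, 446 with Xist as a covariate, 925 with Vpreb1 and Igll1 as a covariate, and 773 (without AL + VC mouse 14) to 3098 (without AL + VC mouse 41) in the fits without a mouse. Genes whose groups did not overlap numbered 60 of 32904 without a minimum and 31 to 182 without a mouse. With fewer mice, full separation is more frequent under random labels, so the counts without a mouse are not comparable with the main one. In a fit of only the 12 mice, genes of a list at an unadjusted p under 0.05 also came to 7 (from 4) for dendritic cells, 6 (from 3) for MHC class I, 0 (from 2) for platelets, 0 (from 3) for DNA replication, 3 (from 1) for cholesterol and 2 (from 4) lower for the fasting response. Over all tested genes 934 were higher and 726 lower at that p in this fit. The difference in spread was -0.120 to -0.179 without a mouse and did not pass without AL + VC mouse 17, 18 or 41. The difference of means changed sign in these cases, none past the threshold. With Xist as a covariate, Gbp7 was at 0.14, Pcdh11x at 0.026, Mrgpra1 at 0.043, Igll1 at 0.26, Il2ra at 0.18, Rag1 at 0.42, Map1lc3b at -0.052, Myb at 0.0048 and Abcb1b at 0.016. With Vpreb1 and Igll1, Gbp7 was at 0.061 and Map1lc3b at -0.026. Map1lc3b was at -0.0033 after quantile normalization, -0.011 with Gm26917 as a covariate and between -0.039 and 0.065 without a mouse. The cause of these changes was not tested. The depth of the libraries is unknown, rlog values understate differences of genes with few reads, and the unequal spread of the groups is averaged in a fit with a shared variance. No paired analysis was possible because the groups share no mouse number.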
